A study of Homo sapiens with 12 samples.

Results

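The comparison described here is the response of EVI1-transduced U937 cells to 24 h of TPA, measured as RNA on microarrays. U937 is an established human myelomonocytic cell line. The cells of both groups carried an EVI1 expression vector and received either 50 ng/ml TPA (U937_EVI1 TPA) or an equal amount of its solvent ethanol (U937_EVI1 EtOH). The groups were chosen by these labels and hold 3 arrays each, which is 6 of the 12 arrays of the series. The other 6 arrays hold U937 cells with the empty vector, 3 given TPA and 3 given ethanol, and serve here to show where the EVI1-transduced cells respond differently. They also enter the choice of probe set and the estimate of the spread. The design calls the 3 arrays of a group biological replicates, but whether they come from separate transductions is not stated, so p-values measure the spread between these samples. The promoter that drives EVI1 in the vector, and whether the transduced cells are a clone or a pool, are not given in the sources used here.

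TPA, also called PMA, is a phorbol ester that takes the place of diacylglycerol and switches on protein kinase C and other proteins with the same binding domain. Through RAS and ERK signalling this is known to stop U937 cells from dividing and to turn them into adherent cells that resemble macrophages. EVI1, encoded at the MECOM locus, is a zinc finger transcription factor of blood stem cells that is overexpressed in some myeloid leukaemias. Every value below is a log2 expression value from RMA, so a difference of 1 is a doubling of signal. Changes are TPA minus ethanol, and the ± sign gives their standard error in limma's fit. A gene is said to rise or fall only where limma's test, adjusted by Benjamini-Hochberg over all 19775 genes, gave a p below 0.05. A level under 5.07, the lowest median of any array, cannot be told from background, and a change that starts or ends there has an uncertain size.

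MECOM itself could not be seen. On every one of the 12 arrays its 5 probe sets stayed within 2.59 to 3.32. Their means over the 12 arrays ranked at the 13.7th percentile of all probe sets or lower. Whether they match the sequence carried by the vector was not checked, so they do not settle whether EVI1 was expressed, and the cells are called EVI1-labelled from here on.

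In these cells 7914 of 19775 genes passed the threshold, which is 40% of all genes, with 3845 higher (19.4%) and 4069 lower (20.6%) with TPA. A change of at least 1 was reached by 1328 raised (6.72%) and 1344 lowered genes (6.8%). Further out the response leaned upward: 91 genes rose by at least 4 and 59 fell by that much, and 23 rose and 1 fell by at least 6. The median change over all genes was 0.00. RMA brings the arrays to nearly the same distribution, with array medians of 5.07 to 5.11, so a shift common to most genes would not be seen. Below, each gene group is given as counts of its measured members that rose or fell, to be read against the 19.4% and 20.6% of all genes. Those shares include many genes of low level. In a fit to the 9885 genes above the median mean level, 3345 rose and 3704 fell, larger shares than among all genes. A list of well-expressed genes can therefore exceed 19.4% or 20.6% without standing out from genes of similar level. In the lists said below to have no member in a direction, at most 1 member passed an unadjusted p below 0.05 in that direction.

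SPP1, FABP4 and ZFP36L1 rose most and CDCA7 and MCM10 fell most, among genes with no overlap between TPA and ethanol arrays and with 1 group mean above that of the median gene. SPP1, the gene of osteopontin, a secreted protein of the matrix, read 4.06, 4.57 and 5.05 on the ethanol arrays and 13.48, 13.35 and 13.62 on the TPA arrays, a rise of 8.92 ± 0.53 (adjusted p = 7.62e-09). FABP4, a lipid carrier of adipocytes and macrophages, went from 3.86, 3.68 and 4.20 to 12.66, 12.30 and 13.13, a rise of 8.78 ± 0.23 (adjusted p = 5.11e-12). ZFP36L1, which binds AU-rich messages and speeds their decay, went from 3.28, 3.22 and 3.37 to 11.46, 11.37 and 10.91, a rise of 7.96 ± 0.18. In each of these genes the 3 TPA arrays lay far above the 3 ethanol arrays, whose levels were at or near background. The 20 largest rises, from 6.36 to 8.92, also took in GDF15, CD52, RGS13, A2M, EGR3, TDO2, CD36, IL7R, HAVCR2, FCMR, PHLDA1, SLAMF7, RIN2, EMP1, C5AR1, MAFF and TRIB1. At the other end CDCA7, a cofactor of DNA methylation, read 11.48, 11.44 and 11.31 with ethanol and 6.19, 4.59 and 5.44 with TPA, a change of -6.0 ± 0.38 (adjusted p = 1.39e-08). MCM10, which helps start replication forks, read 9.69, 9.83 and 9.70 with ethanol and 4.75, 3.39 and 3.42 with TPA, a change of -5.89 ± 0.28. In CDCA7 and MCM10 all TPA arrays lay far below the ethanol arrays, and TPA replicate 1 held the highest TPA reading. The 20 largest falls, between -4.68 and -6.0, also included E2F8, KIF15, SPC25, DTL, KIF20A, HELLS, ZNF367, MS4A3, KIF18B, GINS2, PBK, UHRF1, GINS1, NDC80, CDT1, ASPM, BRIP1 and TTK. Between the extremes, 71 genes went from below the lowest array median to above 7.19, the highest upper quartile of any array, and 60 went the other way.

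**Figure D1:**
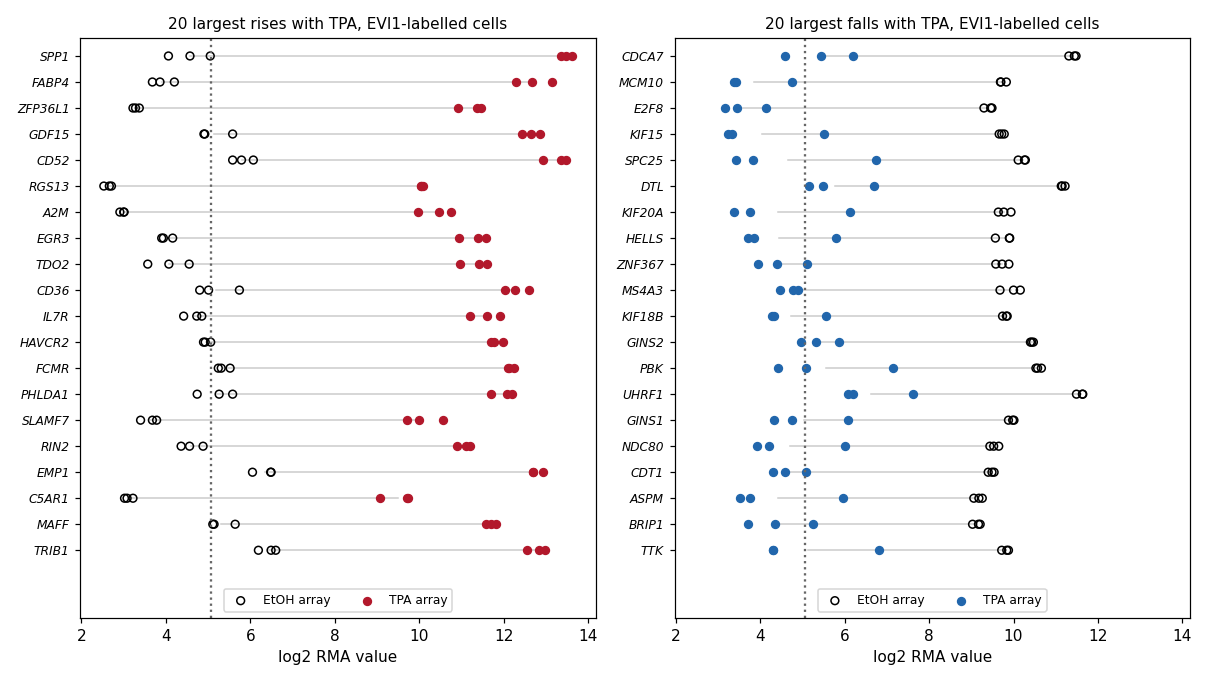
Level of the 20 genes with the largest rise (left) and the 20 with the largest fall (right) on each of the 6 arrays of EVI1-labelled cells, as log2 RMA value on the horizontal axis. Open points are the 3 ethanol arrays, filled points the 3 TPA arrays, and the dotted line marks 5.07, the lowest array median. For SPP1 all TPA arrays read 13.35 or more and all ethanol arrays 5.05 or less.

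Some features of the arrays bear on the results. Within a group the arrays correlated at 0.997 to 0.998 with ethanol and at 0.993 to 0.995 with TPA. TPA replicate 1 read higher than the other TPA arrays in most replication and mitosis genes. TPA replicate 3 did so in most interferon, chemokine, lysosome and monocyte marker genes, and the counts of these lists are given without those arrays too. Other lists leaned on 1 array as well, among them MHC class I genes (13 of 16 highest on TPA replicate 3) and splicing factors (21 of 29 on TPA replicate 1). Without TPA replicate 3 the median change of the MHC class I genes was 0.14 in place of 0.30. Without TPA replicate 1 that of the splicing factors was -0.855 in place of -0.833. The gap between the 3′ and 5′ probe sets of ACTB, a sign of RNA integrity and labelling, was 1.73 to 2.01 with ethanol and 1.23 to 1.29 with TPA, and that of GAPDH 0.44 to 0.62 and 0.30 to 0.41. The part of this difference in the changes below was not tested. Leaving out any 1 of the 12 arrays left between 7213 and 7928 called genes.

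The markers of the monocyte lineage moved in both directions. Of 22 measured surface and lineage markers 13 rose and 3 fell. The mean level of the list was 6.44 to 6.59 on the ethanol arrays and 7.68 to 7.96 on the TPA arrays. Of the 22, 17 had their highest TPA reading on TPA replicate 3, as did 43.6% of all genes. Without that array 12 rose and 3 fell, with a median change of 0.46 in place of 0.61. TYROBP and FCER1G, signalling partners of activating and Fc receptors, rose by 5.04 ± 0.18 and 4.77 ± 0.18, and the beta 2 integrin partners ITGAX and ITGAM, known as CD11c and CD11b, by 4.31 ± 0.14 and 3.93 ± 0.20. The colony-stimulating factor receptor CSF1R read 6.0, 6.09 and 5.87 with ethanol and 9.06, 8.76 and 9.11 with TPA, a rise of 2.99 ± 0.15. Its TPA arrays all stood above its ethanol arrays. CD14, the endotoxin co-receptor of blood monocytes, read 5.29, 4.90 and 5.13 with ethanol and 4.98, 5.18 and 4.98 with TPA and did not pass (-0.06 ± 0.19, adjusted p = 0.861). The macrophage receptors MSR1 and MRC1 and the Fc receptors FCGR1A and FCGR2A did not pass either, at -0.18, 0.30, -0.02 and 0.10. Lysozyme (LYZ) and MNDA, a nuclear antigen of myeloid cells, fell, LYZ from 13.10, 12.79 and 12.70 to 11.24, 10.91 and 11.55 and MNDA by 2.14 ± 0.26.

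Markers of other lineages were mostly not called. None of 12 T and NK cell markers and none of 9 epithelial markers passed with limma, nor did any of them reach an unadjusted p below 0.05, and the mean levels of these lists stayed between 4.32 and 4.91 on all 6 arrays. Of 11 platelet and megakaryocyte markers VWF and PPBP rose and NFE2 fell, with list means of 4.92 to 4.97 with ethanol and 5.04 to 5.27 with TPA. PPBP stayed under the lowest array median with ethanol and with TPA, and its call was lost when some single arrays were left out. Of 7 erythroid markers KLF1 fell by 1.22 ± 0.17, and of 10 fibroblast and endothelial markers PECAM1, an adhesion molecule that myeloid cells also carry, rose from 10.35, 9.92 and 10.41 to 12.52, 12.88 and 12.81. Of 9 B cell markers PAX5, the transcription factor of B cell identity, read 8.08, 8.30 and 8.30 with ethanol and 5.55, 5.69 and 5.37 with TPA, a change of -2.69 ± 0.14, and BANK1 fell by 0.81 ± 0.13. PAX5 stood above the lowest array median in these myeloid cells under both treatments, and the 7 other B cell markers did not pass.

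The targets of TPA and the enzymes around them changed on both sides. Of 24 genes for protein kinase C, protein kinase D, diacylglycerol kinases and other phorbol ester receptors 7 rose and 7 fell, with a median change of 0.04. The 2 largest changes lay in a pair of related genes with opposite signs. RASGRP3, a phorbol ester receptor that loads RAS family proteins with GTP, read 4.02, 3.53 and 3.67 with ethanol and 7.85, 7.10 and 8.21 with TPA, a rise of 3.98 ± 0.23 (adjusted p = 6.67e-09). RASGRP2, which does the same mainly for RAP1, fell from 9.16, 8.91 and 8.98 to 6.77, 6.60 and 6.39, a change of -2.43 ± 0.10 (adjusted p = 2.00e-10). Among the kinases themselves PRKCQ fell by 1.12 ± 0.11 and PRKCE by 0.68, and PRKCB did not pass (-0.20 ± 0.10, adjusted p = 0.144), although its most variable probe set fell (-0.66). The diacylglycerol kinases, which remove the natural ligand, included DGKQ and DGKA with rises of 1.48 ± 0.10 and 1.36 and DGKE with a change of -1.08. Without ethanol replicate 1 of the EVI1-labelled cells 4 genes of this list rose in place of 7.

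Genes that restrain ERK signalling rose in larger numbers. Of 17 feedback phosphatases and adaptors 12 rose and 2 fell, with a median change of 1.02. DUSP1, a nuclear phosphatase of MAP kinases, read 6.38, 6.64 and 6.90 with ethanol and 10.21, 10.44 and 11.22 with TPA, a rise of 3.98 ± 0.20. SPRY2, a Sprouty adaptor that dampens signals from RAS, read 7.93, 7.98 and 8.03 with ethanol and 11.59, 11.64 and 11.29 with TPA, a rise of 3.53 ± 0.10. The related adaptor SPRED1 and the ERK phosphatase DUSP5 rose by 3.38 ± 0.13 and 2.63 ± 0.11, while the phosphatase DUSP3 fell by 0.67 ± 0.10. RGS proteins, which shorten signals from G protein-coupled receptors, had 9 of 15 members raised and 1 lowered. RGS13 went from 2.53, 2.66 and 2.71 to 10.09, 10.05 and 10.03, a rise of 7.42 ± 0.12 (adjusted p = 9.46e-14), and RGS1 and RGS2 rose by 5.72 ± 0.36 and 4.03. RGS18, an RGS protein of blood cells, was the lowered member, at -1.65 ± 0.21. Suppressors of cytokine signalling behaved differently: 3 of 14 rose and 6 fell. The lymphocyte phosphatase PTPN22 read 7.17, 6.98 and 7.09 with ethanol and 4.13, 3.95 and 3.71 with TPA, a change of -3.15 ± 0.16, SOCS2 fell by 2.30 ± 0.13, and PTPN6, known as SHP-1, rose by 1.44 ± 0.12.

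Transcription factors known from the early response to stimuli were raised at 24 h. Of 13 AP-1 and small MAF genes 10 rose and 1 fell, with a median change of 1.26. MAFF, a small MAF protein without an activation domain, read 5.11, 5.14 and 5.64 with ethanol and 11.81, 11.69 and 11.57 with TPA, a rise of 6.39 ± 0.16 (adjusted p = 3.72e-12). ATF3, a stress-induced repressor of the same superfamily, rose by 5.23 ± 0.19, FOS by 3.29 ± 0.17 and JUN by 2.54 ± 0.12, and BATF3 fell by 1.31 ± 0.09. Of 21 EGR, KLF and NR4A genes and their partners 15 rose and none fell. EGR3 read 4.16, 3.90 and 3.94 with ethanol and 11.58, 11.38 and 10.94 with TPA, a rise of 7.30 ± 0.18, and EGR1 went from 5.25, 5.18 and 5.69 to 10.69, 10.64 and 10.37. Within the NR4A nuclear receptors NR4A3 rose by 3.50 ± 0.21, while NR4A1 did not pass (0.12).

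Genes of NF-kB, which drives inflammatory genes, had a smaller share of raised members than the AP-1 and EGR lists. Of 17 subunits, kinases and feedback inhibitors 6 rose and 1 fell, with a median change of 0.22. The called share was near the 40% of all genes. In empty vector cells 11 of the 17 rose and 2 fell, with a median change of 0.56. A lower response in EVI1-labelled cells was called for 3 members, against 1.05% of all genes, and a higher one for none. NFKBIZ, an atypical inhibitor induced by NF-kB, read 7.59, 7.40 and 7.33 with ethanol and 9.70, 9.69 and 9.35 with TPA, a rise of 2.14 ± 0.13, and the kinase gene IKBKE and the inhibitor gene NFKBIE rose by 1.00 ± 0.10 and 0.96. NFKBIA, the main feedback inhibitor of the pathway, read 8.27, 8.36 and 8.39 with ethanol and 8.30, 7.98 and 8.24 with TPA and did not pass (-0.17 ± 0.11, adjusted p = 0.28). In empty vector cells it rose by 1.46 ± 0.11, and the difference between the responses was -1.62 ± 0.15 (adjusted p = 2.16e-04).

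Factors of mature myeloid cells rose more often than they fell, and factors of progenitors fell more often than they rose. Of 21 myeloid factors 12 rose and 4 fell, with a median change of 0.59. BCL6, a repressor of inflammatory genes in macrophages, read 7.40, 7.43 and 7.52 with ethanol and 11.23, 11.11 and 11.30 with TPA, a rise of 3.76 ± 0.08 (adjusted p = 1.25e-12). PPARG, the lipid-sensing nuclear receptor that controls FABP4 and CD36 in macrophages, rose by 2.28 ± 0.11 and CEBPB by 2.14 ± 0.10, while IRF8, a factor of monocyte commitment, fell by 1.02 ± 0.16. Of 20 progenitor factors 1 rose, 9 fell and 10 did not pass. MYC went from 12.13, 12.08 and 12.21 to 9.39, 9.61 and 9.67, a change of -2.58 ± 0.09 (adjusted p = 6.13e-11), and MYB from 12.69, 12.57 and 12.78 to 10.10, 10.27 and 9.59, a change of -2.69 ± 0.14. ERG, a stem cell ETS factor, fell to levels below 5.07 and GFI1, a repressor of progenitors, fell by 1.60. MEF2C, the raised member, rose by 2.37 ± 0.15.

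Secreted signals were raised in part. Of 27 cytokines 12 rose and 3 fell, of 21 growth and differentiation factors 8 rose and 2 fell, and of 24 chemokines 14 rose and none fell. GDF15, a stress-induced member of the TGF-beta superfamily, read 4.90, 4.92 and 5.58 with ethanol and 12.86, 12.43 and 12.64 with TPA, a rise of 7.51 ± 0.20. IL1B, the inflammatory cytokine interleukin 1 beta, went from 6.10, 6.07 and 5.96 to 11.51, 10.05 and 11.48, a rise of 4.97 ± 0.28 (adjusted p = 4.66e-09). The decoy ligand IL1RN of the same receptor went from 5.49, 5.54 and 5.73 to 8.0, 7.91 and 9.24, a rise of 2.80 ± 0.27. So the agonist and the antagonist of the interleukin 1 receptor both rose. The anti-inflammatory cytokine IL10 rose by 2.60 ± 0.23, TNFSF15 by 3.53 ± 0.19, and the growth factors HBEGF and INHBA by 3.30 ± 0.10 and 3.20 ± 0.52. Among the lowered genes TNFSF13B, the B cell survival factor BAFF, read 11.51, 11.44 and 11.53 with ethanol and 8.85, 8.46 and 9.88 with TPA, and IL32 and VEGFA fell by 1.66 ± 0.13 and 1.01 ± 0.16.

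Chemokines that draw monocytes and neutrophils led their list, whose median change was 0.69. CCL2, the monocyte attractant MCP-1, read 7.74, 7.76 and 8.27 with ethanol and 13.32, 12.20 and 13.82 with TPA, a rise of 5.19 ± 0.33. CCL7 rose from 3.37, 3.38 and 3.36 to 8.62, 7.25 and 9.62, and CXCL8, the neutrophil attractant interleukin 8, from 8.23, 7.98 and 8.61 to 12.17, 11.82 and 12.11. On TPA replicate 2 CCL2 and CCL7 were lowest, and 19 of the 24 chemokines read highest on TPA replicate 3, where 44.5% of all genes higher with TPA had their highest TPA reading. The mean level of the list on the TPA arrays was 6.31, 6.04 and 6.79, against 4.97 to 5.08 with ethanol. Without TPA replicate 3 of the EVI1-labelled cells 11 of 24 rose, and the median change was 0.41.

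Enzymes that cut or guard the extracellular matrix rose without any called fall: 19 of 30 proteases, inhibitors and matrix proteins rose, with a median change of 0.93. Beside SPP1, A2M, a broad protease trap, read 3.01, 2.91 and 3.00 with ethanol and 9.96, 10.75 and 10.47 with TPA, a rise of 7.42 ± 0.27. MMP7, the metalloproteinase matrilysin, went from 4.49, 4.68 and 4.65 to 9.35, 10.27 and 10.10, a rise of 5.30 ± 0.23, and MMP19 rose by 5.04 ± 0.19. The urokinase receptor PLAUR, which holds a matrix protease at the cell surface, rose by 4.24. Clotting genes were less uniform, with 4 of 12 raised and 2 lowered, among them tissue factor (F3), which starts clotting, at -1.62 ± 0.13, and the phospholipid-binding annexin ANXA5, raised by 1.80.

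Receptors for complement, cytokines, microbial products and debris were raised in larger numbers than lowered. Of 18 chemoattractant receptors 9 rose and 4 fell. C5AR1, the receptor of the anaphylatoxin C5a, read 3.08, 3.22 and 3.02 with ethanol and 9.72, 9.06 and 9.73 with TPA, a rise of 6.40 ± 0.15 (adjusted p = 2.79e-12), and the C3a receptor C3AR1 rose by 3.90 ± 0.25. CXCR4, the CXCL12 receptor that holds progenitors in the marrow, went the other way, from 11.78, 11.64 and 11.58 to 8.63, 7.46 and 9.03, a change of -3.29 ± 0.27. Of 34 cytokine and growth factor receptors 18 rose and 5 fell. IL7R, best known from lymphocytes, went from 4.42, 4.73 and 4.85 to 11.61, 11.21 and 11.91, a rise of 6.91 ± 0.15. The stem cell factor receptor KIT fell from 6.23, 6.02 and 6.22 to 4.16, 4.11 and 4.07, all below the lowest array median.

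Among sensors of microbes 14 of 28 rose and 2 fell. LY96, also called MD-2, the partner that lets TLR4 bind endotoxin, read 3.92, 3.56 and 4.36 with ethanol and 9.66, 9.07 and 10.31 with TPA, a rise of 5.73 ± 0.27. TLR1 and the DNA sensor AIM2 rose by 3.42 ± 0.15 and 2.72 ± 0.32, and NOD1 fell by 0.99 ± 0.10. Fc, scavenger and phagocytic receptors had 16 of 23 members raised and 2 lowered, with a median change of 1.84. CD36, a receptor for oxidised lipoproteins and fatty acids, read 5.01, 4.80 and 5.74 with ethanol and 12.02, 12.26 and 12.59 with TPA, a rise of 7.11 ± 0.23. OLR1, another receptor for oxidised lipoproteins, rose by 5.02 ± 0.25 and the lipid receptor TREM2 by 4.81 ± 0.12. TYRO3 and SCARB1 fell, at -1.30 ± 0.12 and -1.01, while MERTK, of the same kinase family as TYRO3, was among the raised members.

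Purine receptors and immune ligands also moved in both directions. Of 17 genes of purine and adenosine signalling 7 rose and 4 fell: the ATP-gated channels P2RX4 and P2RX7 rose by 3.37 ± 0.14 and 2.97, and P2RY8, a receptor that confines B cells in germinal centres, fell from 11.07, 10.85 and 10.93 to 7.84, 6.90 and 7.24. Of 20 costimulatory and inhibitory ligands 12 rose and 2 fell. HAVCR2, the inhibitory receptor TIM-3, read 4.93, 4.89 and 5.06 with ethanol and 11.78, 11.70 and 11.97 with TPA, a rise of 6.86 ± 0.09 (adjusted p = 2.15e-14). SLAMF7 rose by 6.47 ± 0.19 and ICAM1 by 3.09 ± 0.12, while CD70, a ligand of activated lymphocytes, fell by 1.56 ± 0.11.

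Adhesion and the cytoskeleton changed widely. Of 25 integrins and leukocyte adhesion molecules 17 rose and 3 fell, with a median change of 1.77. ITGB5, the beta subunit of a vitronectin receptor, read 5.79, 5.58 and 5.82 with ethanol and 10.46, 10.08 and 10.13 with TPA, a rise of 4.49 ± 0.12, and ITGA6, part of a laminin receptor, rose by 3.66 ± 0.16. SELPLG, the ligand with which leukocytes roll on selectins, fell from 8.61, 8.34 and 8.68 to 6.45, 6.10 and 6.24, and ITGA4, a subunit of the VCAM1 receptor, fell by 0.63. Of 30 actin, podosome and contractile genes 19 rose and 1 fell. Gelsolin (GSN), which cuts and caps actin filaments, went from 6.42, 6.23 and 6.58 to 12.23, 12.54 and 12.55, a rise of 6.03 ± 0.13 (adjusted p = 1.18e-12). The membrane-bound motor MYO1E and the podosome scaffold SH3PXD2A, known as TKS5, rose by 4.82 ± 0.10 and 2.13 ± 0.08. EZR, which ties actin to the membrane, was the lowered member, at -0.47 ± 0.08, and ACTB did not pass (0.13 ± 0.08, adjusted p = 0.233).

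Genes of antigen presentation by MHC class I moved in both directions, and few of MHC class II passed. Of 16 MHC class I genes 6 rose and 3 fell, with HLA-E raised from 10.35, 10.14 and 10.29 to 12.07, 12.03 and 12.01, the trimming peptidase ERAP1 raised by 1.56 ± 0.13, and the immunoproteasome subunits PSMB9 and PSMB8 at -0.78 ± 0.17 and -0.75. Of 14 MHC class II genes 1 rose and 1 fell. The raised one was CTSS, the protease that trims the invariant chain, from 8.65, 8.57 and 8.92 to 10.54, 10.72 and 10.86. HLA-DRA read 9.70, 9.18 and 9.77 with ethanol and 8.91, 7.71 and 8.76 with TPA and missed the threshold (-1.09 ± 0.45, adjusted p = 0.0712), which it passed in 5 of the alternatives, among them the fit to the 6 arrays of EVI1-labelled cells and the fit without vector TPA replicate 1.

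Interferon response genes, which form an antiviral programme, rose in 21 of 28 cases and fell in 1, with a median change of 2.36. OAS1, which makes the signal for RNase L, read 4.55, 4.38 and 4.99 with ethanol and 8.82, 8.03 and 10.57 with TPA, a rise of 4.50 ± 0.49 (adjusted p = 3.46e-06). IFIT1, which binds viral RNA, went from 4.72, 4.74 and 5.78 to 7.56, 7.83 and 10.69, a rise of 3.61 ± 0.66. In both genes TPA replicate 3 stood well above the other 2 TPA arrays, and ethanol replicate 3 above the other ethanol arrays. HERC5, the ligase for ISG15, fell from 8.86, 8.65 and 8.94 to 6.74, 6.59 and 8.17. All 28 genes read highest on TPA replicate 3, where 44.5% of all genes higher with TPA did so. The mean level of the list was 7.66, 7.64 and 9.24 on the 3 TPA arrays and 6.15, 6.09 and 6.45 on the ethanol arrays. Without TPA replicate 3 of the EVI1-labelled cells 21 genes rose and 2 fell, with a median change of 1.84. Empty vector cells had list means of 7.85, 7.93 and 7.26 with TPA and 5.78 to 6.01 with ethanol.

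**Figure D2:**
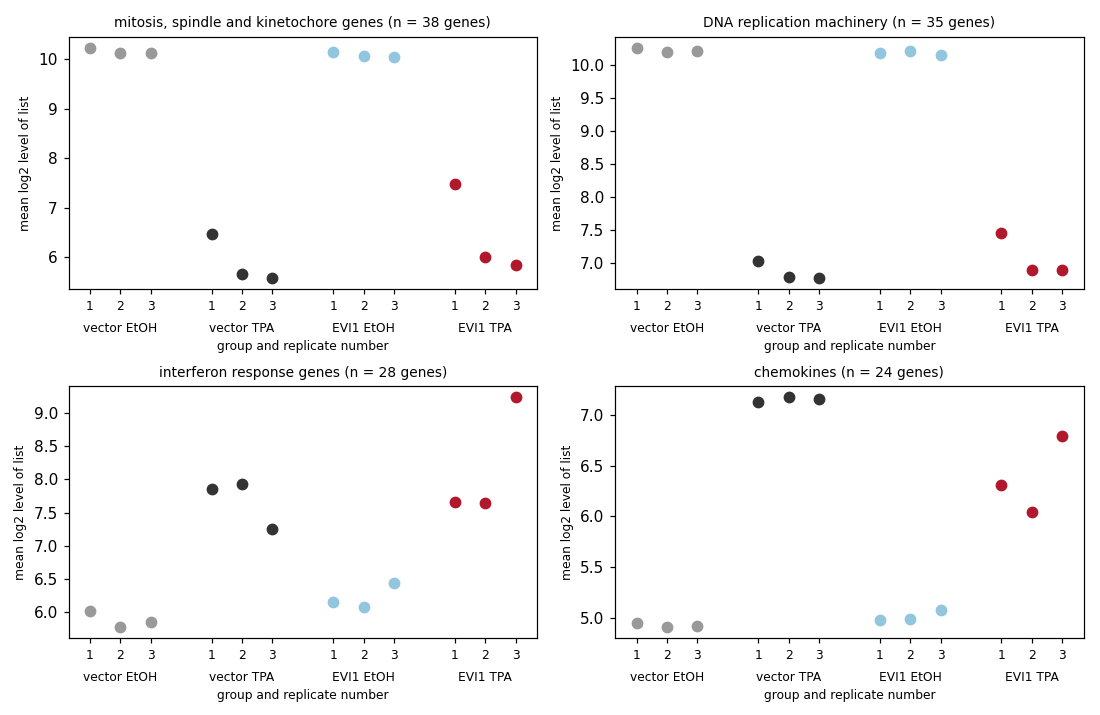
Mean log2 level of 4 gene lists (vertical axis) on each of the 12 arrays, by group and replicate number along the horizontal axis. For the mitosis list the EVI1 TPA arrays read 7.49, 6.0 and 5.85, replicate 1 being the highest, and for the interferon list 7.66, 7.64 and 9.24, replicate 3 being the highest.

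Products of the granules of young myeloid cells fell, and calcium-binding S100 proteins rose. Of 16 granule genes 1 rose and 9 fell. MS4A3, a membrane protein of myeloid progenitors, read 10.16, 9.68 and 10.00 with ethanol and 4.48, 4.90 and 4.78 with TPA, a change of -5.23 ± 0.24. The serine proteases cathepsin G (CTSG) and neutrophil elastase (ELANE) fell by 4.57 ± 0.43 and 3.56 ± 0.26, CTSG from 13.15, 12.94 and 13.41 to 8.94, 7.39 and 9.47, and PRTN3 by 2.96 ± 0.21. The raised one was LTF, at levels of 4.05 and 4.82 on average that are under the lowest array median. Of 16 S100 and annexin genes 12 rose and none fell. S100B rose by 3.08 ± 0.16 and S100A9, a subunit of calprotectin, from 6.41, 7.18 and 7.11 to 8.72, 9.29 and 8.84, while its partner S100A8 did not pass (-0.24 ± 0.25).

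Genes of the lysosome, where macrophages digest what they take up, rose together: 22 of 30 hydrolase and proton pump genes rose and none fell, with a median change of 1.06. Of the 30, 25 had their highest TPA reading on TPA replicate 3 (list means 10.30, 10.29 and 10.56), as did 44.5% of all genes higher with TPA. Without that array 22 rose, with a median of 0.97. Cathepsin H (CTSH) read 10.00, 9.74 and 10.05 with ethanol and 12.40, 12.46 and 12.61 with TPA, a rise of 2.56 ± 0.10. Cathepsin B (CTSB) rose by 2.24 ± 0.15 and LIPA, the lysosomal lipase for cholesteryl esters, by 1.93 ± 0.13. LAMP1 did not pass (0.00). Of 18 autophagy genes 10 rose and 3 fell, with the phosphoinositide-binding WIPI1 and the cargo receptor SQSTM1 raised by 1.86 ± 0.10 and 1.28 ± 0.13 and ATG9A at -1.12 ± 0.17. Of 24 proteasome subunits 9 rose, none by 1 or more, and 1 fell, PSMD1 by 1.95 ± 0.11. The count of raised subunits was 5 without ethanol replicate 2 of the EVI1-labelled cells.

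Chaperones mostly fell, and stress genes moved in both directions. Of 20 chaperones 12 fell and 1 rose, with the mitochondrial pair HSPE1 and HSPD1 lowered by 1.24 ± 0.14 and 0.87 ± 0.08 and DNAJB9 of the endoplasmic reticulum raised by 1.32 ± 0.14. Of 20 genes of the unfolded protein response and of ATF4 7 rose and 8 fell. The serine synthesis enzymes PHGDH and PSAT1, targets of ATF4, fell by 2.91 ± 0.17 and 2.65 ± 0.13, PHGDH from 9.60, 9.74 and 9.76 to 7.24, 6.41 and 6.73. PPP1R15A, which restarts translation after stress, rose by 2.53 ± 0.14. Genes of the NADPH oxidase and of antioxidant defence had 12 of 24 members raised and 8 lowered. The oxidase subunits NCF1 and CYBB rose by 3.93 ± 0.17 and 2.52 ± 0.37, NCF1 from 8.38, 8.46 and 8.50 to 12.55, 12.63 and 11.94. HMOX1, which breaks down haem, rose from 7.51, 7.44 and 7.81 to 11.75, 11.52 and 11.94. Catalase (CAT) and the mitochondrial superoxide dismutase SOD2 fell by 1.77 ± 0.10 and 1.58 ± 0.13.

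Lipid-handling genes moved in both directions. Of 23 lipid-handling genes 11 rose and 4 fell: FABP4, CD36, the esterase NCEH1 and PPARG led the rises, and the synthesis genes SCD and FASN fell by 1.34 ± 0.20 and 1.24 ± 0.12. Of 15 cholesterol genes 7 rose and 3 fell. Squalene epoxidase (SQLE) read 9.66, 9.73 and 9.97 with ethanol and 11.96, 11.89 and 11.96 with TPA, a rise of 2.15 ± 0.09, HMGCS1 rose by 1.44 ± 0.12, and DHCR7, which makes the last step to cholesterol, fell by 0.76 ± 0.21, a call lost with the mean of all its probe sets (-0.54). Of 20 enzymes and receptors of the arachidonate pathway 9 rose and 1 fell. The cyclooxygenase genes PTGS1 and PTGS2 rose by 2.34 ± 0.12 and 2.15 ± 0.19, and the prostaglandin-reducing enzyme AKR1C3 by 3.75 ± 0.19.

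Sugar and energy metabolism had smaller and mixed changes. Of 27 glycolysis and hypoxia genes 6 rose and 10 fell: the glucose transporter SLC2A3 and hexokinase HK3 rose by 2.69 ± 0.15 and 1.92 ± 0.23, and hexokinase HK2 fell by 1.07 ± 0.16. Of 21 genes of pyruvate entry and the tricarboxylic acid cycle 6 rose and 9 fell, led by the pyruvate carrier MPC1 and the dehydrogenase subunit DLAT, both at -1.06. Of 24 nuclear-encoded respiratory chain subunits 3 rose and 8 fell, none of them by 1 or more. Of 16 iron genes 3 rose and 3 fell, and the transferrin receptor TFRC did not pass (0.24).

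Nucleotide synthesis fell almost as a whole, with 26 of 28 genes lowered, 1 raised and a median change of -1.60. Thymidylate synthase (TYMS) read 13.11, 13.15 and 13.06 with ethanol and 10.19, 8.26 and 8.06 with TPA, a change of -4.27 ± 0.46 (adjusted p = 3.05e-06), and the ribonucleotide reductase subunit RRM2 went from 12.77, 12.63 and 12.76 to 10.16, 8.23 and 8.09. TPA replicate 1 again held the highest TPA reading of both. The raised gene was RRM2B (0.46 ± 0.14), the reductase subunit that resting cells use, which no longer passed without TPA replicate 1 or ethanol replicate 3 of the EVI1-labelled cells (0.37 and 0.38). Of 23 amino acid genes 5 rose and 10 fell: SLC7A7, an exporter of cationic amino acids, rose from 5.92, 6.28 and 6.11 to 11.16, 11.34 and 11.37, and the polyamine enzymes SRM and ODC1 fell by 2.07 ± 0.11 and 1.57 ± 0.09. Of 13 genes of tryptophan breakdown 3 rose and 1 fell. TDO2, the tryptophan dioxygenase known from liver, read 4.07, 3.57 and 4.55 with ethanol and 10.97, 11.41 and 11.61 with TPA, a rise of 7.27 ± 0.24, and KMO and KYNU, which act further down the same pathway, rose by 4.52 ± 0.27 and 2.39 ± 0.19. Of 22 ion channel and pump genes 8 rose and 3 fell, among them the sodium pump subunit ATP1B1 and the calcium-gated potassium channel KCNN4, raised by 3.47 ± 0.15 and 3.30 ± 0.11.

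**Figure D3:**
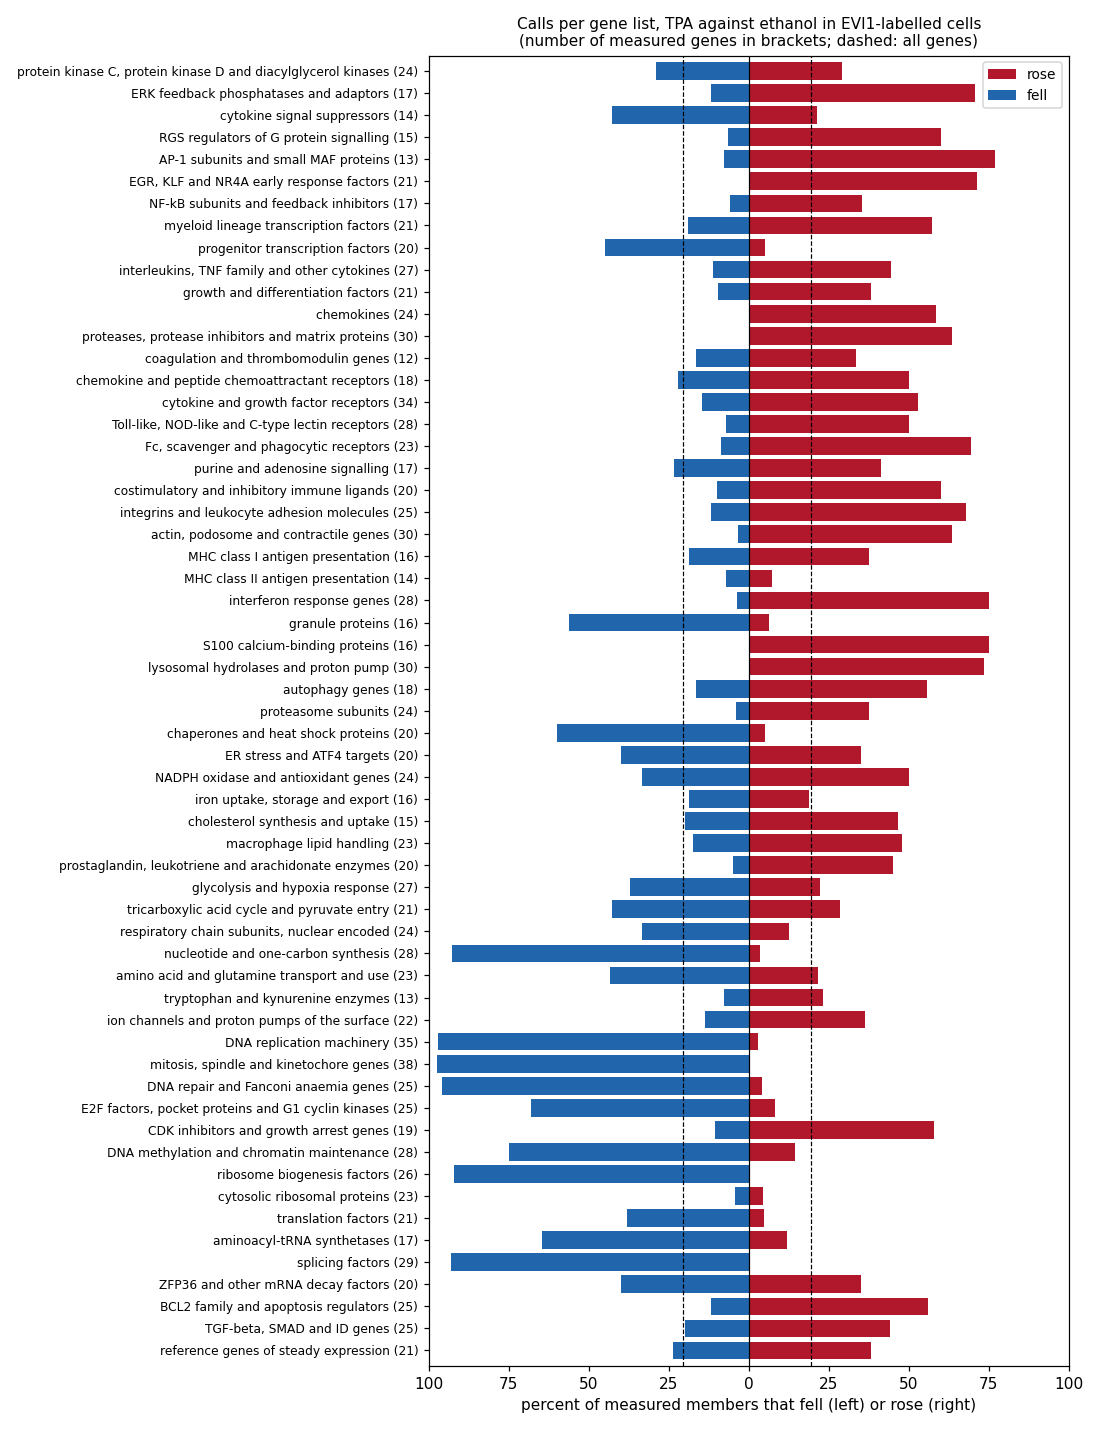
Share of the measured members of each gene list that rose (right of 0) or fell (left of 0) with TPA in EVI1-labelled cells, in percent, with the dashed lines at the shares of all genes, 19.4% and 20.6%. The bars of replication, mitosis, nucleotide synthesis, ribosome biogenesis and splicing lie almost wholly on the left, and those of S100, lysosome, chemokine and matrix genes on the right.

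Cell division genes showed the most uniform response. All but 1 of 35 DNA replication genes fell (median -3.18), as did 37 of 38 mitosis genes (median -4.10; the other, CDC25C, read 4.17 and 4.15 on average and could not be told from background) and 24 of 25 DNA repair genes (median -2.69; ATM rose by 0.77 ± 0.09). KIF15, a spindle motor, read 9.78, 9.72 and 9.66 with ethanol and 5.52, 3.34 and 3.24 with TPA, a change of -5.69 ± 0.47 (adjusted p = 2.14e-07). SPC25 of the kinetochore went from 10.28, 10.26 and 10.11 to 6.74, 3.84 and 3.43, and GINS2 of the replicative helicase from 10.40, 10.47 and 10.43 to 5.87, 4.97 and 5.33. The 3 genes lay close together on the ethanol arrays and were far lower on every TPA array, with the spread between the TPA arrays much wider. For the mitosis list the mean level was 10.03 to 10.13 with ethanol and 7.49, 6.0 and 5.85 on the TPA arrays, and 36 of the 38 genes read highest on TPA replicate 1, where 48.1% of all genes lower with TPA did so. Of the replication genes 30 of 35 and of the repair genes 16 of 25 did so. Without TPA replicate 1 of the EVI1-labelled cells 37 mitosis genes fell, with a median of -4.67, 34 replication genes (-3.31) and 24 repair genes (-2.79). Empty vector cells had list means of 6.48, 5.66 and 5.59 on their TPA arrays, replicate 1 again being the highest. In bulk RNA, fewer dividing cells and less RNA per dividing cell cannot be told apart.

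Single members of these lists behaved differently. RFC5, a subunit of the clamp loader, rose by 1.12 ± 0.20 on its brightest probe set, from 8.73, 8.76 and 8.48 to 9.92, 10.24 and 9.16, but changed by -1.52 with the mean of all its probe sets and by -2.91 with its most variable one. CCNB2, a B-type cyclin, fell by 1.02 ± 0.11 here and by 2.42 ± 0.11 in empty vector cells, a difference of 1.40 ± 0.16 (adjusted p = 5.95e-04) and the 1 called difference in the mitosis list, lost with the mean of all its probe sets.

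Promoters of the proliferation lists are shown because members of these lists moved together. The promoters come from RefSeq (GRCh38.p14) and were searched on both strands for short motifs that are textbook sites of cell cycle factors, in 300 bases, 250 before and 50 after the first listed start. The motif TTTGAA, the core of the cell cycle genes homology region bound by the DREAM complex, was in 23 of 34 mitosis promoters (67.6%) and in 11.9% of all 15384 promoters. The E2F motif TTCCCGCC was in 9 of 31 replication promoters (29%) and in 4.21% of all. The motifs were chosen with the gene lists known, and a match is a description of the letters, not a measured site. For each motif a list member with a match in the 150 bases before its start is printed. Not every member was open to this choice, so the printed gene need not have the largest change among those with a match. Sequences run 5′ to 3′ on the gene's strand, with the matches on either strand in capitals.
KIF15, chr3:44761644-44761793, plus strand: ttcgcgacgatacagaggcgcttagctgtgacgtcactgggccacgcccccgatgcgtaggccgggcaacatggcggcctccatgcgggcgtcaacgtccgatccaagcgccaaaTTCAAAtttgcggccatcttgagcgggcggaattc
GINS2, chr16:85688955-85689104, minus strand: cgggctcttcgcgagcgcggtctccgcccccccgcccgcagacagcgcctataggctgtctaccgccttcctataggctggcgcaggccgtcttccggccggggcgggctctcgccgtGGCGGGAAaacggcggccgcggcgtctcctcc

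The regulators above these genes changed in the same direction for the most part. Of 25 E2F factors, pocket proteins and G1 cyclin and kinase genes 17 fell and 2 rose. The repressor E2F8, itself a cell cycle gene, read 9.49, 9.46 and 9.30 with ethanol and 4.13, 3.46 and 3.16 with TPA, a change of -5.83 ± 0.22, the cyclin CCNE2 fell by 4.56 ± 0.19 and the mitotic factor FOXM1 by 3.85 ± 0.14. The pocket protein RB1 and cyclin D1 (CCND1) rose by 1.09 ± 0.10 and 1.42 ± 0.13. Of 19 CDK inhibitors and growth arrest genes 11 rose and 2 fell. CDKN2B, the inhibitor p15, went from 3.10, 3.68 and 3.52 to 9.08, 8.95 and 9.43, a rise of 5.72 ± 0.19, and CDKN1A, the inhibitor p21, from 8.47, 8.30 and 8.77 to 12.52, 12.49 and 12.69, a rise of 4.05 ± 0.11 (adjusted p = 8.59e-12). CDKN1B, the inhibitor p27, fell by 0.94 ± 0.13 at the RNA level.

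Chromatin genes followed, with 21 of 28 lowered and 4 raised and a median of -1.65. Besides CDCA7, its remodelling partner HELLS and UHRF1, which recruits the maintenance methyltransferase, fell by 5.34 ± 0.39 and 4.95 ± 0.31. The raised genes were the A-type lamin LMNA, from 9.31, 9.27 and 9.43 to 11.66, 11.53 and 11.85, the deacetylase HDAC9 (2.27 ± 0.30), the de novo methyltransferase DNMT3A (1.99 ± 0.08) and the methylcytosine dioxygenase TET2 (1.02 ± 0.11). 

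Ribosome biogenesis and splicing genes fell in nearly all cases, by smaller median amounts than the division genes. Of 26 ribosome biogenesis factors 24 fell and none rose (median -1.19), and of 29 splicing factors 27 fell and none rose (median -0.83). NOLC1, a nucleolar chaperone, read 12.30, 12.35 and 12.42 with ethanol and 10.69, 10.27 and 10.27 with TPA, a change of -1.95 ± 0.13, and the splicing factor PRPF19 fell by 1.39 ± 0.10. Of 17 aminoacyl-tRNA synthetases 11 fell and 2 rose, and of 21 translation factors 8 fell and 1 rose, with the translation repressor EIF4EBP1 at -1.78 ± 0.10 and the initiation factor EIF3B at -1.37 ± 0.08. The ribosomal proteins themselves stood apart from this: of 23 measured members RPS27 rose, by 0.23 ± 0.07, RPL35 fell, by 0.31 ± 0.07, and the other 21 did not pass, with a median of 0.01 over the 23. RPS27 no longer passed without TPA replicate 1 or ethanol replicate 3 of the EVI1-labelled cells (0.23 and 0.22) or in the fit of the 6 arrays with a replicate block, and turned to -0.13 with the mean of all its probe sets.
The motif CACGTG, the E-box that MYC and related factors bind, was in 9 of 20 ribosome biogenesis promoters (45%). It was in 8.9% of all promoters searched. The member printed, chosen in the same way, is NAT10, an RNA acetyltransferase of the nucleolus.
NAT10, chr11:34105479-34105628, plus strand: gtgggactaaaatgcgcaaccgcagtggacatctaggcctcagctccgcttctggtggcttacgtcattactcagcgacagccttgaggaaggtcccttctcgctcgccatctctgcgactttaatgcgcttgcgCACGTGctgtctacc

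Among raised lists the same search gave the following. The interferon-stimulated response element, searched as GAAA, any 2 bases and GAAA, was in 14 of 22 interferon promoters (63.6%) and in 2.94% of all. The NF-kB motif, searched as GGG, any 2 bases and TTTCC, was in 5 of 18 chemokine promoters (27.8%) and 2.07% of all. The AP-1 motif TGANTCA was in 4 of 19 promoters of proteases and matrix genes (21.1%) and 5.84% of all, and TCACGTGA, the lysosomal CLEAR element that contains the E-box, in 4 of 19 lysosomal promoters (21.1%) and 1.45% of all. The promoters below were chosen in the same way as those above, so the printed gene need not have the largest change among members with a match. IFIT1 rose by 3.61, CCL20, a chemokine of mucosal sites, by 2.10, MMP7 by 5.30 and the proton pump subunit ATP6V0D1 by 1.80.
IFIT1, chr10:89392473-89392622, plus strand: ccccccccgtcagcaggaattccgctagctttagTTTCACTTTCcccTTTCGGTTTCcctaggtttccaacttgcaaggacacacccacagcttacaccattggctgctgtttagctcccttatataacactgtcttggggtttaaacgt
CCL20, chr2:227813692-227813841, plus strand: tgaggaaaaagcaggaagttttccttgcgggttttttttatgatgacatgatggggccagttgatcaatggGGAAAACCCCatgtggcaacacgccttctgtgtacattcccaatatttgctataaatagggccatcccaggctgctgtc
MMP7, chr11:102530748-102530897, minus strand: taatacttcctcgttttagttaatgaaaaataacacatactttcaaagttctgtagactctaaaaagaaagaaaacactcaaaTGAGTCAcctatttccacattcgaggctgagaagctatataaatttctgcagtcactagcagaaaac
ATP6V0D1, chr16:67481158-67481307, minus strand: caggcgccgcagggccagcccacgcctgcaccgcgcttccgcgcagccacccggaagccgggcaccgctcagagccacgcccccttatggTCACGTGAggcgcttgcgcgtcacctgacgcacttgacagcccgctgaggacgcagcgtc

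Survival genes moved on both the protective and the killing side. Of 25 BCL2 family and apoptosis genes 14 rose and 3 fell. The protective BCL2A1 read 8.35, 8.38 and 8.91 with ethanol and 12.55, 12.35 and 12.78 with TPA, a rise of 4.01 ± 0.16, and the protective BCL2L1 and MCL1 rose by 1.44 ± 0.08 and 1.28 ± 0.08. BMF, which antagonises these proteins, rose by 2.65 ± 0.12, and another antagonist, PMAIP1, fell by 1.25 ± 0.10. BCL2 itself did not pass (0.27 ± 0.14, adjusted p = 0.171), although it did without TPA replicate 2 of the EVI1-labelled cells (0.40). In empty vector cells it rose by 1.36 ± 0.14, and the difference was -1.09 ± 0.20 (adjusted p = 0.0154), which was lost with the mean of all its probe sets. Of 20 genes that control message decay 7 rose and 8 fell: ZFP36L1, ZC3H12C and ZFP36 rose by 7.96, 3.34 and 3.09, while the exosome subunits EXOSC2 and EXOSC3 fell by 2.21 ± 0.15 and 1.02.
Of 25 genes of TGF-beta signalling 11 rose and 5 fell, with the receptors ACVR1 and TGFBR2 raised by 2.98 and 2.55, the feedback inhibitor SMAD7 raised by 2.94 ± 0.13 and the co-receptor TGFBR3 at -1.34 ± 0.11.

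Genes often used as references were not all steady. Of 21 such genes 8 rose and 5 fell. GAPDH read 13.59, 13.59 and 13.67 with ethanol and 13.57, 13.58 and 13.65 with TPA and did not pass (-0.02 ± 0.07, adjusted p = 0.899). HPRT1 fell by 0.71 ± 0.07, TBP by 0.68, and REEP5 rose by 1.22 ± 0.11.

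The response was compared with that of empty vector cells by testing the difference between the 2 TPA effects. In empty vector cells 8535 genes (43.2%) passed, and 6938 genes passed in both populations in the same direction and 17 in opposite directions. The difference itself passed for 392 genes (1.98%), 185 with a higher (0.936%) and 207 with a lower value in EVI1-labelled cells (1.05%). When each array was left out in turn the count of called differences ran from 188 without vector EtOH replicate 1 to 681 without EVI1 TPA replicate 3, and it was also more than 1.5 times lower without any of the other ethanol arrays or EVI1 TPA replicate 2. Of 959 genes called in EVI1-labelled and not in empty vector cells, 40 had a called difference.

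Genes that rose more in EVI1-labelled cells came from several functions. AKR1C3 read 3.68, 3.65 and 3.77 with ethanol and 7.32, 7.80 and 7.23 with TPA, a rise of 3.75 ± 0.19 against 0.56 ± 0.19 in empty vector cells, a difference of 3.19 ± 0.27 (adjusted p = 9.24e-05). JAKMIP2, a protein that binds JAK kinases, rose by 3.50 ± 0.11 against 0.56 ± 0.11, a difference of 2.94 ± 0.15 (adjusted p = 1.02e-06). Myoglobin (MB) rose by 6.05 ± 0.32 against 3.17 ± 0.32, from 4.18, 4.24 and 4.30 to 10.16, 11.06 and 9.65. In all 3 genes the TPA arrays of EVI1-labelled cells stood far above their ethanol arrays. The RAS-like protein RASD2, the protease inhibitor SERPINI1 and CD36 also had larger rises, with differences of 2.22 ± 0.21, 2.10 ± 0.38 and 2.13 ± 0.32. For CD36 part of this lay in a lower start near background. With ethanol CD36 read 5.01, 4.80 and 5.74 in EVI1-labelled and 6.13, 5.87 and 6.30 in empty vector cells. With TPA CD36 read 12.02, 12.26 and 12.59 against 10.93, 10.87 and 11.44. MYB fell less, by 2.69 against 4.42 in empty vector cells (difference 1.73 ± 0.20, adjusted p = 6.65e-04). Of 15 cholesterol genes 4 had a higher response, among them HMGCS1, the synthase at the entry to the pathway (1.44 against 0.47, difference 0.97 ± 0.17), and none a lower one. The 4 fell to 1 when any of vector EtOH replicate 1 or 3, EVI1 EtOH replicate 1 or 2, or EVI1 TPA replicate 2 was left out, and HMGCS1 lost its call with its most variable probe set.

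Chemokines, cytokines and TGF-beta genes were the lists with the most called lower responses. PPBP, a platelet chemokine precursor, read 3.72, 3.43 and 4.24 with TPA in EVI1-labelled cells, under the lowest array median, and changed by 0.70 ± 0.22 (not past the threshold without EVI1 EtOH replicate 1 or 2 or EVI1 TPA replicate 3) against 5.11 ± 0.22 in empty vector cells, a difference of -4.41 ± 0.31 (adjusted p = 1.47e-05). IL1B had a difference of -3.12 ± 0.40 (4.97 against 8.09, adjusted p = 0.00134) and TREM1, an amplifying receptor of myeloid cells, of -2.31 ± 0.38 (4.74 against 7.05). CD14, which did not pass in EVI1-labelled cells, rose by 2.00 ± 0.19 in empty vector cells, a difference of -2.06 ± 0.27 (adjusted p = 0.00179). Lower responses were called for 7 of 24 chemokines, among them CCL20 (-2.43 ± 0.25) and CCL4 (-2.38 ± 0.42), for 6 of 27 cytokines and for 5 of 25 TGF-beta genes, against 1.05% of all genes. Of the TGF-beta genes 2 others had a higher response, against 0.936% of all genes. When each of the 12 arrays was left out in turn the counts of lower responses were 6 to 8, 4 to 6 and 3 to 6. The count of higher responses among TGF-beta genes was then 0 to 2. AFDN, an adaptor of cell junctions, went in opposite directions: it fell by 0.97 ± 0.15 in EVI1-labelled cells, from 7.17, 7.21 and 7.46 to 6.59, 6.0 and 6.34, and rose by 1.44 ± 0.15 in empty vector cells (difference -2.41 ± 0.21, adjusted p = 9.24e-05, not called with the mean of all its probe sets). GRHL1 rose by 1.42 ± 0.18 in EVI1-labelled cells against -0.36 ± 0.18 in empty vector cells (difference 1.78 ± 0.25). No interferon, lysosome, S100, granule, replication or ribosomal protein gene of the lists had a called difference by limma, which does not show that these genes responded alike. At an unadjusted p below 0.05 the difference was reached by 9 of 30 lysosome, 5 of 16 S100, 3 of 16 granule, 5 of 35 replication, 2 of 23 ribosomal protein and 0 of 28 interferon genes.

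**Figure D4:**
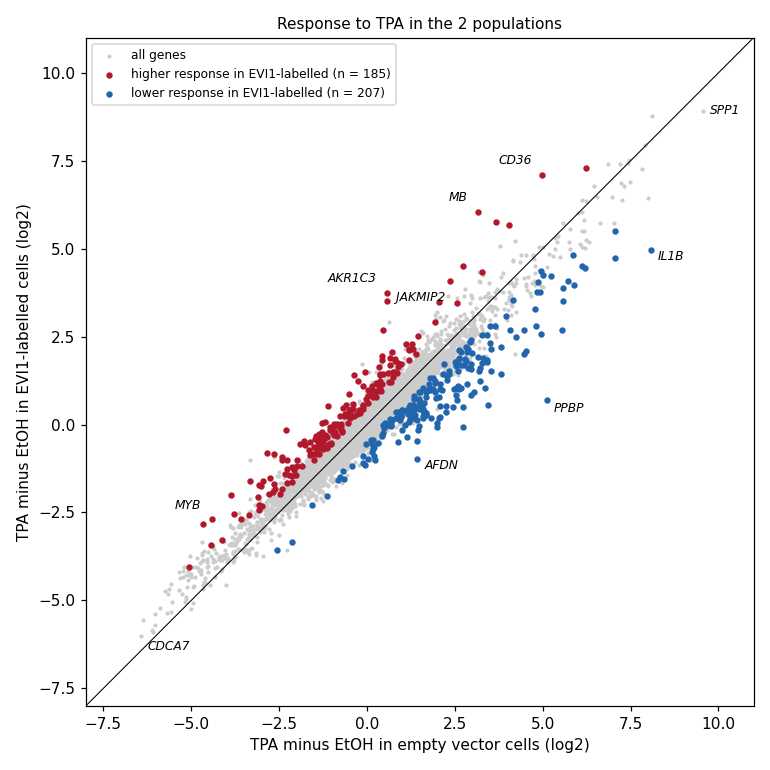
TPA effect per gene in empty vector cells (horizontal axis) and EVI1-labelled cells (vertical axis), both as log2 change, for all 19775 genes in grey, with the 185 genes of higher and 207 of lower response in EVI1-labelled cells coloured and the diagonal of equal response drawn. AKR1C3 and JAKMIP2 lie above the diagonal and PPBP and IL1B below it.

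**Figure D5:**
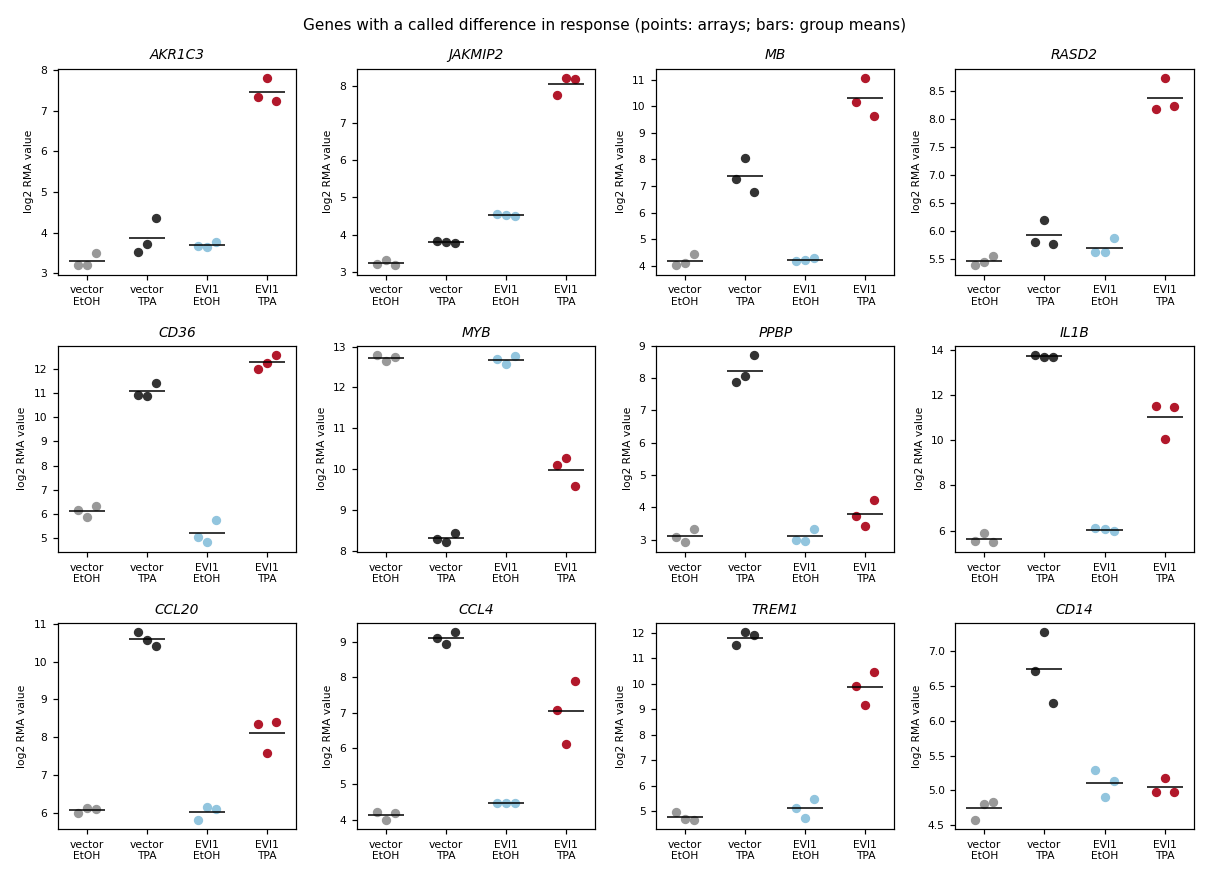
Level of 12 genes with a called difference in response on all 12 arrays, as log2 RMA value on the vertical axes, in the order vector EtOH, vector TPA, EVI1 EtOH and EVI1 TPA, with 1 point per array, a bar at the group mean and a scale of its own in each panel. AKR1C3 reads 7.23 to 7.80 on the EVI1 TPA arrays, and PPBP reads 3.43 to 4.24 there.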

How the data were processed

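The 12 samples were hybridised to Affymetrix arrays (U133 Plus 2.0). Per the submitters' processing notes, the authors used Affymetrix Expression Console 1.3, and the deposited values are log2 RMA levels. RMA brings all arrays to nearly the same distribution, which hides a shift common to most genes. Of 54675 probe sets, 41097 had 1 gene symbol in the platform annotation, 1801 several and 11777 none. For each of 19775 genes the single-gene probe set of highest mean level across the series was used, 10523 genes having several to choose from. Groups came from the sample titles. Means of the 4 groups were fitted with limma 3.58.1 in R 4.3.3, and p-values were adjusted by Benjamini-Hochberg over all genes. The script was tested on simulated data. The number of arrays limits the precision.

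Gene lists and tests were chosen with earlier results of these data known. The genes named are the 20 largest changes each way, the largest changes and highest uncalled levels within each list, the largest differences between populations, and markers. ATP6V0D1, BCL2, CCNB2, MERTK, NAT10, NFKBIA and PLAUR fall outside that rule and were chosen after their values were seen, as were the promoter motifs and the 5.07 background level. Alternatives changed the scaling, the probe set rule, the filter, the moderation, the arrays fitted, the replicate block and each array in turn.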

Additional observations from a re-analysis of the deposited data

Results flagged for a closer look

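Among the genes named above, 38 had a TPA response that differed between EVI1-labelled and empty vector cells by limma's test of the difference (adjusted p below 0.05 over all genes), 15 with a higher and 23 with a lower value in EVI1-labelled cells. Of all genes 1.98% passed this test. Part of the 38 were named because of a large difference in this same test, so their number cannot be set against that share. Values are the response of EVI1-labelled cells minus that of empty vector cells, in log2. Of the 38, 19 lost the call under at least 1 alternative.

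The 19 differences that were called under every alternative that tested the gene lay on both sides. The higher ones were AKR1C3 (3.19), JAKMIP2 (2.94), MB (2.88), RASD2 (2.22), CD36 (2.13), SERPINI1 (2.10), GRHL1 (1.78), MYB (1.73) and the progenitor repressor GFI1 (1.35). The lower ones were PPBP (-4.41), IL1B (-3.12), the chemokines CCL20 (-2.43) and CCL4 (-2.38), TREM1 (-2.31), CD14 (-2.06), the cytokine TNFSF15 (-2.04), RASGRP3 (-1.92), NFKBIA (-1.62) and the growth factor HBEGF (-1.48).

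The other 19 were lost under 1 or more alternatives. Those with a higher value were KMO (1.78), NR4A3 (1.45), CCNB2 (1.40), EGR3 (1.07), HMGCS1 (0.97) and RASGRP2 (0.65). Those with a lower value were AFDN (-2.41), IL1RN (-2.03), the cyclooxygenase PTGS2 (-1.39), BCL2 (-1.09), CXCL8 (-1.09), the receptor KIT (-0.90), PPP1R15A (-0.88), ICAM1 (-0.86), CDKN1A (-0.81), PLAUR (-0.77), SELPLG (-0.72), TGFBR2 (-0.72) and MERTK (-0.69).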

How the results depend on the processing

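The count of genes changed by TPA in EVI1-labelled cells, 7914 of 19775, lay between 7521 and 8142 under the other scalings, probe set rules and fits. It lay between 7213 and 7928 when each array was left out. The filter to the 9885 genes above the median mean level left 7049 called genes, a larger share than the 40% of all genes. Asking also for a change of at least 1 left 2672 genes, 1328 higher and 1344 lower. The count of differences between populations, 392, ran from 188 to 681 when each array was left out, with 77 to 344 higher and 101 to 337 lower.

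A replicate block gave 8123 genes with TPA in EVI1-labelled cells and 516 differences. Arrays of the same number in the EVI1 EtOH and EVI1 TPA groups correlated at 0.145, 0.0913 and 0.208 after removal of group means. With EVI1 TPA arrays of another number the EVI1 EtOH arrays reached at most 0.0217, 0.0149 and -0.1065, so each matched its own number best. Not all were above 0.1, the cut-off used here, and the main fit took no pairs. Between the vector TPA and EVI1 TPA groups arrays of the same number correlated at 0.415, 0.130 and 0.151. These were all above 0.1 and each best with its own number. In the other 4 pairs of groups at least 1 was not above 0.1. Effects shared by arrays of the same number are taken into account only in the fits with a block.

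RFC5 turned from a rise to -1.52 with the mean of all probe sets and -2.91 with the most variable one, and RPS27 to -0.13 and -0.50; the cause was not tested. Of 252 named genes 8 changed call or direction in the TPA effect under any alternative, and of 38 named differences 19 did. Of 132 counts of raised or lowered list members, 36 moved under at least 1 alternative, by more than 1.5 times or to or from 0. That was 101 of 2772 recounts. Among 5046 called genes with several probe sets, 140 had another probe set called in the opposite direction.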
